A study of Mus musculus with 17 samples.

Results

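The neuronal pentraxins were described in the hippocampus of adult mice with and without the transcriptional coactivator CBP, before and after a convulsant. They are encoded by 3 genes, Nptx1, Nptx2 and Nptxr, which were taken from the gene counts by symbol, and all 3 were found among the 55471 genes of the table. Hippocampal total RNA of C57BL/6 mice aged 3 to 6 months gave 17 libraries. The methods describe individual male mice for the saline-treated libraries. Nothing in the sources used here says that the kindled libraries came from separate mice, so their p-values measure only the spread between samples, which may be technical. CBP-ifKO mice carry floxed Crebbp and a tamoxifen-inducible creERT2 driven by Camk2a, so that after tamoxifen the forebrain excitatory neurons make a truncated CBP, while interneurons and glia, in which this driver is not active, keep the intact gene. Controls were, by the methods, littermates that lack creERT2, although the description in the labels names the driver line for them too, and all mice of both genotypes received tamoxifen. Sal mice were given saline and were not kindled. PTZ0 mice were kindled, that is, given 45 mg/kg of the GABA-A receptor blocker pentylenetetrazole (PTZ) on alternate days, and then received saline. PTZ45 mice were given the same course and received a last 45 mg/kg PTZ, 45 min before the hippocampi were collected. The paper reports that controls came to have seizures over this course, whereas CBP-ifKOs did not reach the stage of progressive seizures. The PTZ0 and PTZ45 groups of the genotypes thus differ in seizure history as well. Control PTZ45 had 2 libraries and every other group 3.

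Pentraxins are proteins that share a pentraxin domain and assemble into multimers. Nptx1 and Nptx2 (also called Narp) are secreted at synapses, whereas Nptxr, the neuronal pentraxin receptor, is held in the membrane by its amino terminus. Together they bind the extracellular part of AMPA-type glutamate receptors and gather these at excitatory synapses, in particular those on parvalbumin interneurons. Nptx2 is best known as a gene that neurons switch on when they fire, and its other name stands for neuronal activity-regulated pentraxin.

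Because the members descend from a common gene, the stretch of 60 coding bases in which they match best is shown here, to make clear how far 50-base reads can tell them apart. All 3 stretches lie in exon 4, in the later part of the coding sequence, where this family encodes its pentraxin domain. They are written 5′ to 3′ on the strand of the gene, from the GENCODE M21 transcripts on GRCm38, with capitals for the bases that are identical in all members. They come from chr11:119543182-119543241 (minus strand), chr5:144555417-144555476 (plus strand) and chr15:79790266-79790325 (minus strand).
Nptx1: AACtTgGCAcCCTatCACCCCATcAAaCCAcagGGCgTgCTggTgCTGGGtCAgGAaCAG
Nptx2: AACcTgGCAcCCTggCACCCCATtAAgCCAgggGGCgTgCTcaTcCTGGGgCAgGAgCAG
Nptxr: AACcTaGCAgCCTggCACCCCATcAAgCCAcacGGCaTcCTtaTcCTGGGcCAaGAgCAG

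Of these 60 bases 42 were the same in all members. Nptx2 matched Nptx1 at 48 bases and Nptxr at 49, and Nptx1 matched Nptxr at 45. The longest run of identical coding bases was 16 between Nptx1 and Nptx2, 19 between Nptx2 and Nptxr, and 13 between Nptx1 and Nptxr. No 50-base word was shared between any of the members, so a full-length read without mismatches fits only 1 of them. Every such word of Nptx1 and of Nptx2 was absent from the transcripts of all other genes.

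Nptx1 (ENSMUSG00000025582) lies on chromosome 11 from 119538719 to 119547753 on the minus strand, Nptx2 (ENSMUSG00000059991) on chromosome 5 from 144545902 to 144557478 on the plus strand, and Nptxr (ENSMUSG00000022421) on chromosome 15 from 79786351 to 79804766 on the minus strand. Each has 5 exons in the transcript with the longest coding sequence. Nptxr overlaps Npcd, a gene on the same strand, and 890 of its 5170 exonic bases (17.2%) also belong to exons of Npcd. Npcd had 0 counts in every library. How reads in the shared exons were assigned is not given in the sources used here, so the level of Nptxr is uncertain to that extent. No gene overlaps Nptx1 or Nptx2 in the annotation. All members are rich in G and C, with 54.9% in Nptx1, 58.3% in Nptx2 and 59.6% in Nptxr, against a median of 48.5% over 13034 genes.

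The libraries held 5831992 to 18735643 counts, the shallowest being CBP-ifKO Sal replicate 2. Crebbp, the targeted gene, ranged from 1824 to 2429 normalized counts (counts divided by DESeq2 size factors) in controls and from 1061 to 1337 in CBP-ifKOs. Esr1, part of which forms the creERT2 construct, ranged from 41.0 to 77.8 in controls and from 703.3 to 940.7 in CBP-ifKOs, and Arsi, a neighbour of Camk2a carried on the transgene, from 7.79 to 17.6 and from 46.3 to 101.1, so every library matched its genotype label. Fos, an immediate early gene that marks neuronal firing, was at 2483 and 2915 in the Control PTZ45 libraries, between 163 and 287.7 in CBP-ifKO PTZ45 and between 13.4 and 62.4 in all other libraries. Markers of dentate granule cells, CA1 and CA3 were present in every library. Choroid plexus markers, summed over 5 genes, varied from 434.8 to 44030 normalized counts, with low and high libraries in both genotypes. Both Control PTZ45 libraries were low, at 772.5 and 902, and no choroid plexus marker that received an adjusted p was called in any comparison. The sequencing lanes of the labels split the genotypes: Control Sal and PTZ0 were on lane 3, Control PTZ45 and CBP-ifKO Sal on lane 4, and CBP-ifKO PTZ0 and PTZ45 on lane 5. Genotype and lane therefore cannot be told apart within any treatment, and only PTZ0 against Sal in controls and PTZ45 against PTZ0 in CBP-ifKOs compare groups of the same lane.

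Nptxr was the most abundant neuronal pentraxin per length of exon and Nptx2 the least. In Control Sal mice the level per kilobase was 1121 ± 32.0 normalized counts for Nptxr, 764.6 ± 80.4 for Nptx1 and 42.6 ± 5.47 for Nptx2 (SD, n = 3 each). The order Nptxr, Nptx1, Nptx2 was the same within each of the 17 libraries, although the ranges of Nptxr and Nptx1 over all libraries overlapped, from 890.3 to 1252 and from 672.5 to 1019 per kilobase. Because Nptx2 was scarce, its raw counts ran only from 25 to 261 reads per library, against 2143 to 6825 for Nptx1 and 2371 to 7582 for Nptxr. Counting error alone gave Nptx2 an SD of 0.17 on the log2 scale, of a pooled within-group SD of 0.22, whereas for Nptx1 and Nptxr counting error was 0.02 of a within-group SD of 0.11 each.

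**Figure D1:**
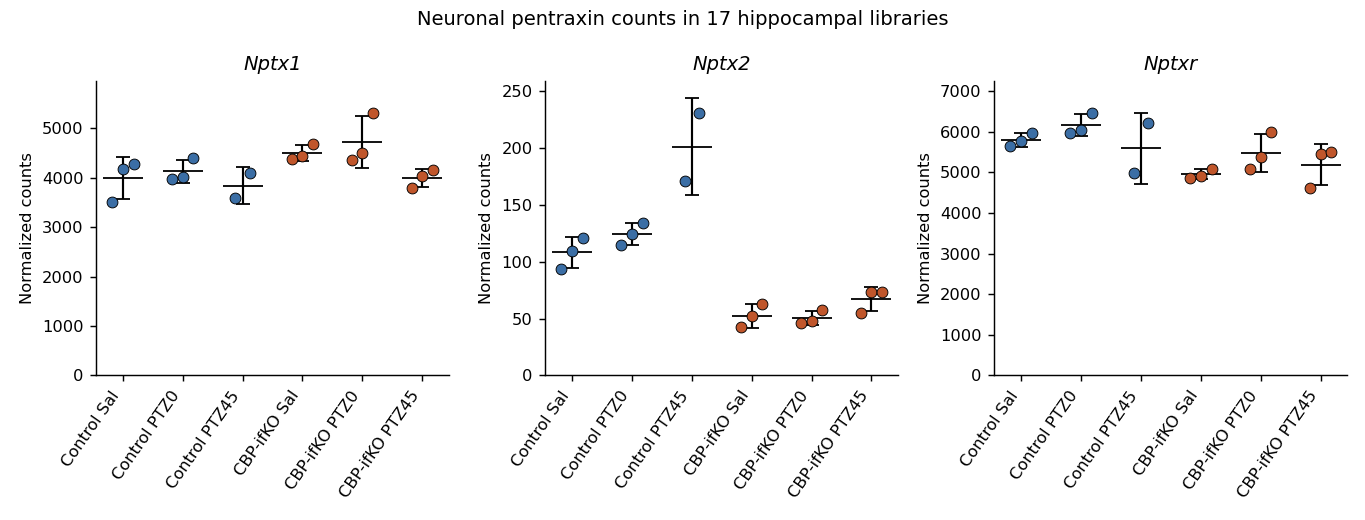
Normalized counts (vertical axes, from 0) of Nptx1, Nptx2 and Nptxr in each of the 17 libraries by group; points are libraries (blue control, orange CBP-ifKO), the long bar is the group mean and the whiskers are 1 SD. Nptx2 in CBP-ifKO libraries does not exceed 73.6, below the lowest control library at 93.5, whereas the genotypes overlap for Nptx1 and Nptxr.

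Nptx2 was the member with the large difference between genotypes, and it was lower in CBP-ifKOs. In Sal it was at 93.5, 109.6 and 121.1 normalized counts in controls and at 42.3, 51.9 and 62.8 in CBP-ifKOs. In PTZ0 it was at 114.3, 124.2 and 134.3 in controls and at 46.3, 48.1 and 57.3 in CBP-ifKOs. In PTZ45 it was at 170.6 and 230.8 in controls and at 54.98, 73.1 and 73.6 in CBP-ifKOs. No CBP-ifKO library reached any control library, whatever its treatment. Control libraries averaged 137.3 ± 43.9 (SD, n = 8). Those of CBP-ifKOs averaged 56.7 ± 11.2 (SD, n = 9), or 41.3% ± 8.18 of the control mean.

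Fitted over the 3 treatments, Nptx2 had a log2 fold change of -1.31 (SE 0.12, 95% interval -1.54 to -1.07, adjusted p 2.3e-24, from the DESeq2 Wald test with Benjamini-Hochberg adjustment), which is a level of 0.405 times that of controls. In this comparison 3606 of 18682 genes were called, that is, had an adjusted p under 0.05, which is 19.3% of the genes tested, so a call by itself is common here. The size of the difference was less common: of 13024 genes that averaged 50 or more normalized counts, 12 had a lower log2 fold change. An exact permutation test that reassigned the genotype within treatments gave p = 0.00025 for Nptx2, the smallest p the 4000 reassignments allow (two-sided, mean log2 difference -1.295). The Nptx2 call remained under all 23 alternatives of the fit, with log2 fold changes from -1.39 to -1.21. With lane as a further term, which assumes that genotype, treatment and lane effects add up, it was -1.34 (SE 0.37, adjusted p 0.0432), and 131 genes were called. That fit has as many coefficients as groups, so its assumption cannot be checked. Its genotype term adds the difference in Sal to the genotype difference in the change from PTZ0 to PTZ45. It therefore does not separate lane from genotype.

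Within each treatment alone the Nptx2 difference was also called. In Sal, where 306 of 15004 genes were called (2.04%), Nptx2 stood at -1.05 on the log2 scale (SE 0.25, adjusted p 0.00263). In PTZ0, with 852 of 12752 genes called (6.68%), it was -1.29 (SE 0.22, adjusted p 7.09e-07). In PTZ45, with 468 of 15224 called (3.07%), it was -1.58 (SE 0.25, adjusted p 5.32e-08). The groups did not overlap in any treatment, but how many of all genes separate the groups in this way was not counted. The call in Sal rested on single libraries: the adjusted p was 0.0672 without Control Sal replicate 2, 0.132 without Control Sal replicate 3 and 0.103 without CBP-ifKO Sal replicate 1. The Sal call was also lost with the replicate number as a block. In PTZ0 and PTZ45 the call remained when any 1 library was left out, with adjusted p-values up to 0.00107 and 0.0381.

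Nptx1 and Nptxr differed between genotypes by far less, and in opposite directions. Nptx1 averaged 4005 ± 316.6 normalized counts in controls (SD, n = 8), from 3509 to 4403, and 4403 ± 432.8 in CBP-ifKOs (SD, n = 9), from 3789 to 5317. Fitted over the treatments, Nptx1 was higher by 0.15 on the log2 scale (SE 0.05, adjusted p 0.0269), an increase of 10.7%. Nptxr averaged 5880 ± 446.0 in controls (SD, n = 8), from 4973 to 6470, and 5205 ± 416.6 in CBP-ifKOs (SD, n = 9), from 4603 to 5990. The fitted difference of Nptxr was -0.17 on the log2 scale (SE 0.05, adjusted p 0.00449), a change of -11.3%. The ranges of the genotypes overlapped for both genes, and 2046 of the 13024 abundant genes had a higher log2 fold change than Nptx1 and 1907 a lower one than Nptxr. The exact permutation test within treatments gave p = 0.014 for Nptx1 and p = 0.0118 for Nptxr (two-sided).

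The Nptx1 call depended on single libraries. The adjusted p was 0.0618 without Control Sal replicate 1, 0.0524 without CBP-ifKO Sal replicate 3, 0.0619 and 0.0657 without Control PTZ0 replicate 2 or 3, 0.0704 without CBP-ifKO PTZ0 replicate 1 and 0.0633 without Control PTZ45 replicate 2. The exact permutation p of Nptx1 was 0.0725 without Control PTZ45 replicate 2, and that of Nptxr was 0.0912 without Control PTZ45 replicate 1. With lane as a term neither gene was called, with log2 fold changes of 0.04 (SE 0.15, adjusted p 1) for Nptx1 and -0.17 (SE 0.15, adjusted p 1) for Nptxr. As said above, that fit does not separate lane from genotype. Genes rich in G and C were slightly lower in CBP-ifKOs as a whole, with a median log2 fold change of -0.08 over genes above 60% GC and 0.02 over genes below 45%. After a correction for this trend, the log2 fold change of Nptxr was -0.10 (SE 0.04, adjusted p 0.0299), that of Nptx1 0.18 (SE 0.05, adjusted p 0.00256) and that of Nptx2 -1.25 (SE 0.12, adjusted p 4.16e-24).

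Within single treatments neither gene passed the test as fitted. Nptx1 had log2 fold changes of 0.17 in Sal (adjusted p 0.486), 0.19 in PTZ0 (adjusted p 0.104) and 0.06 in PTZ45 (adjusted p 0.927), and in Sal its lowest CBP-ifKO library, at 4372, lay above the highest control library, at 4283. Leaving out 1 library moved these values, to 0.09 in Sal without Control Sal replicate 1 and to 0.10 in PTZ0 without CBP-ifKO PTZ0 replicate 1, and in PTZ0 the GC correction gave 0.25 with a call (adjusted p 0.0126). Nptxr had log2 fold changes of -0.23 in Sal (adjusted p 0.0503), -0.17 in PTZ0 (adjusted p 0.107) and -0.11 in PTZ45 (adjusted p 0.84). In Sal its 3 CBP-ifKO libraries, from 4857 to 5084, lay below the controls, from 5639 to 5968. For both members, the share of all genes that separate the genotypes in Sal was not counted. Nptxr was called in Sal with TMM size factors (adjusted p 0.0435) and without CBP-ifKO Sal replicate 3 (adjusted p 0.0165), and in PTZ0 without CBP-ifKO PTZ0 replicate 1 (adjusted p 0.00368). In PTZ0 its log2 fold change was -0.09 (adjusted p 0.472) after the GC correction. In PTZ45 the sign rested on 1 library of the 2 controls: without Control PTZ45 replicate 1 the Nptxr difference was 0.06, and without replicate 2 the Nptx1 difference was -0.04.

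**Figure D2:**
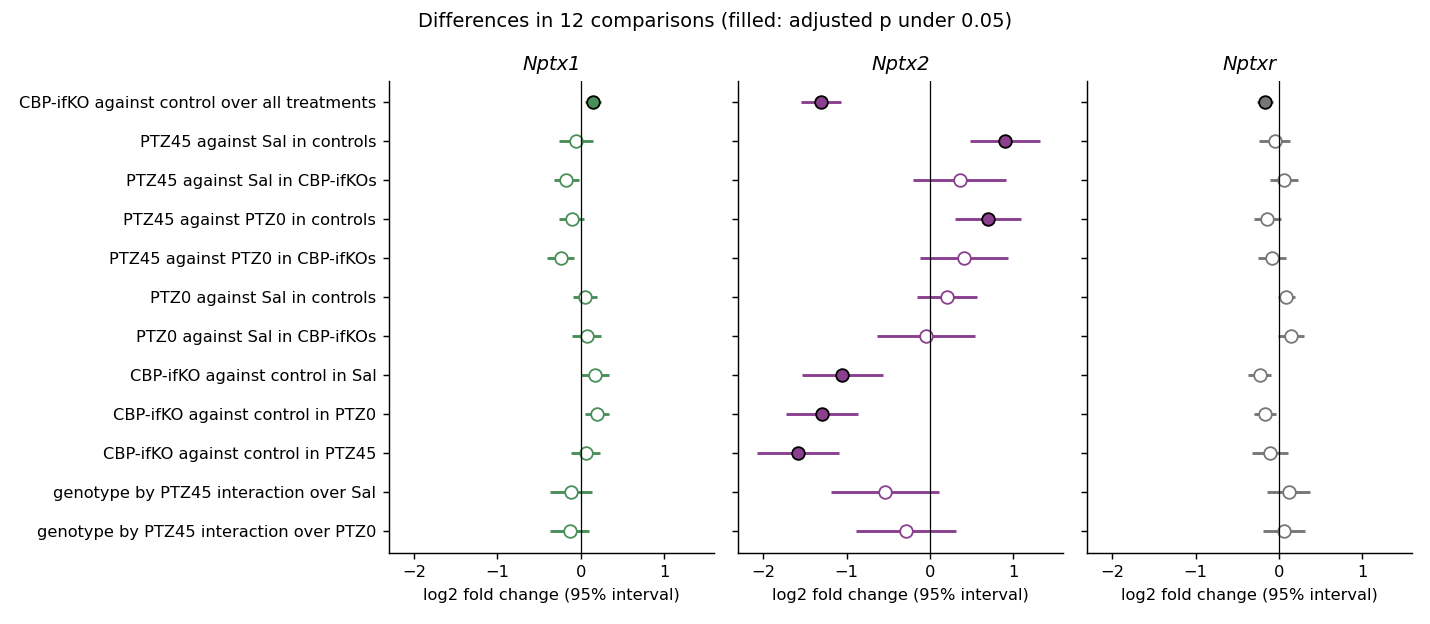
Log2 fold change (horizontal axes) with its 95% interval for each member in the 12 comparisons; filled points have an adjusted p under 0.05 by DESeq2. Nptx2 is called in the 4 genotype comparisons and in PTZ45 against Sal and against PTZ0 in controls, whereas Nptx1 and Nptxr are called only in the genotype comparison over all treatments.

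In controls Nptx2 was higher in PTZ45 than in Sal and in PTZ0, both of which ran on another lane than PTZ45. PTZ45 and Sal also differ by the whole course of kindling. From the 3 Sal libraries given above, at 93.5 to 121.1, the level was higher in both PTZ45 libraries, at 170.6 and 230.8, and the mean rose from 108.1 ± 13.9 (SD, n = 3) to 200.7 ± 42.6 (SD, n = 2). This log2 fold change of 0.90 (SE 0.21, 95% interval 0.48 to 1.32, adjusted p 0.00376) is a 1.86-fold level. In the same comparison 204 of 17367 genes were called (1.17%), 163 of them higher. Among 13040 abundant genes 66 had a higher log2 fold change. Against PTZ0, which ranged from 114.3 to 134.3, Nptx2 gave 0.69 on the log2 scale (SE 0.20, adjusted p 0.0475), with 225 of 17982 genes called (1.25%), and this call was lost with TMM size factors (adjusted p 0.055) and in 1 fit of all libraries (adjusted p 0.0708). The comparisons share the PTZ45 libraries and are not independent. For scale, Fos had log2 fold changes of 6.08 against Sal and 6.68 against PTZ0.

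With only 2 Control PTZ45 libraries these calls rested on single libraries. Both calls were also lost with the replicate number as a block. Against Sal the adjusted p of Nptx2 was 0.5 without Control PTZ45 replicate 1, with a log2 fold change of 0.66, 0.135 without Control Sal replicate 1 and 0.0573 without Control Sal replicate 2. Against PTZ0 it was 0.457, 0.328 and 0.514 without Control PTZ0 replicate 1, 2 or 3, and without Control PTZ45 replicate 1 the log2 fold change was 0.45 and DESeq2 gave no adjusted p. Genes rich in G and C were lower in PTZ45 than in Sal in controls, with a Spearman correlation of -0.56 between log2 fold change and GC content across 13034 genes, which are not independent replicates. Nptx2 is itself rich in G and C, and after the correction for this trend its log2 fold change against Sal was 1.06 (SE 0.21, adjusted p 6.02e-05) and against PTZ0 0.84 (SE 0.19, adjusted p 0.00149).

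In CBP-ifKOs no change of Nptx2 after PTZ passed the test. The libraries were at 42.3, 51.9 and 62.8 in Sal, at 46.3, 48.1 and 57.3 in PTZ0 and at 54.98, 73.1 and 73.6 in PTZ45, and the groups overlapped. The log2 fold change of PTZ45 was 0.36 against Sal (SE 0.28, 95% interval -0.20 to 0.92, adjusted p 1), where 58 of 19757 genes were called (0.294%). It was 0.20 without CBP-ifKO Sal replicate 1 and 0.54 without CBP-ifKO Sal replicate 3. Against PTZ0, on the same lane, it was 0.41 (SE 0.27, 95% interval -0.12 to 0.94, adjusted p 1), with 23 of 26374 genes called (0.0872%). The mean after PTZ in CBP-ifKOs, 67.2 ± 10.6 (SD, n = 3), was lower than that of Control Sal mice, and the ranges of these groups did not overlap.

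An interaction term compared the Nptx2 response of the genotypes. Over Sal it was -0.54 on the log2 scale (SE 0.33, 95% interval -1.19 to 0.11, p 0.102, adjusted p 1), and 69 of 20945 genes were called (0.329%). Over PTZ0 it was -0.29 (SE 0.31, 95% interval -0.89 to 0.31, p 0.342, adjusted p 1), and 82 of 19370 were called (0.423%). A difference in the Nptx2 response was thus not shown at this depth and number of libraries. Both intervals include no difference, a somewhat larger response in CBP-ifKOs and one smaller by more than the estimated control response. The interaction depended on single libraries: without Control PTZ45 replicate 1 it was -0.30 over Sal and -0.05 over PTZ0, without CBP-ifKO Sal replicate 3 it was -0.34 over Sal, and over PTZ0 it was -0.49 without Control PTZ45 replicate 2, -0.19 without CBP-ifKO PTZ0 replicate 2 and -0.16 without CBP-ifKO PTZ45 replicate 2. Fos, by contrast, was called in both, with interaction log2 fold changes of -3.18 (SE 0.52, adjusted p 7.5e-07) and -2.65 (SE 0.34, adjusted p 3.16e-12).

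Nptx1 and Nptxr gave no call for any response to PTZ. In controls Nptx1 was at 3509, 4175 and 4283 in Sal and at 3581 and 4101 in PTZ45, with a log2 fold change of -0.06 (SE 0.10, 95% interval -0.26 to 0.14), and against PTZ0 it had -0.11 (SE 0.08, adjusted p 0.811), or -0.21 (adjusted p 0.0721) without Control PTZ45 replicate 1, -0.01 without replicate 2 and -0.06 without Control PTZ0 replicate 1. Nptxr was at 5639, 5773 and 5968 in Sal and at 4973 and 6212 in PTZ45, with a log2 fold change of -0.05 (SE 0.10, 95% interval -0.24 to 0.13). Both adjusted p-values were 0.983, and the signs turned after the GC correction, to 0.03 for Nptx1 and 0.14 for Nptxr, and without Control PTZ45 replicate 2, to 0.04 and 0.10. The interval of each excludes a change as large as the estimate for Nptx2. In CBP-ifKOs the 3 PTZ45 libraries of Nptx1, at 3789, 4030 and 4155, lay below all Sal libraries, at 4372, 4447 and 4673, and below all PTZ0 libraries, at 4352, 4492 and 5317. The log2 fold changes were -0.17 (SE 0.08, p 0.0225, adjusted p 0.926) and -0.24 (SE 0.08, p 0.00348, adjusted p 0.97), so neither passed the test over all genes. How many of all genes separate these groups in the same way was not counted. The former was -0.10 after the GC correction and the latter -0.15 without CBP-ifKO PTZ0 replicate 1. Nptxr in CBP-ifKOs had log2 fold changes of 0.06 against Sal (SE 0.09) and -0.08 against PTZ0 (SE 0.09), with overlapping groups. After the GC correction these were 0.26 (adjusted p 0.429) and 0.05 (adjusted p 1). Without CBP-ifKO PTZ45 replicate 1, 2 or 3 they were 0.14, 0.02 and 0.03 against Sal and -0.00051, -0.13 and -0.12 against PTZ0, and the latter was -0.01 and -0.13 without CBP-ifKO PTZ0 replicate 1 or 3. Against PTZ0 in controls the Nptxr log2 fold change was -0.14 (SE 0.08, adjusted p 0.731). That value rested on the 2 PTZ45 libraries, being -0.31 (adjusted p 0.000212) without Control PTZ45 replicate 1 and 0.01 without replicate 2. In the interaction over Sal the log2 fold change was -0.12 (SE 0.13) for Nptx1 and 0.11 (SE 0.13) for Nptxr. Over PTZ0 it was -0.14 (SE 0.12) and 0.06 (SE 0.13), and every adjusted p was 1. Leaving out 1 library moved the Nptx1 interaction to between -0.21 and -0.02 over Sal and between -0.23 and -0.03 over PTZ0, the ends of both being the fits without Control PTZ45 replicate 2 and replicate 1. It was also -0.03 over Sal without Control Sal replicate 1 and -0.04 over PTZ0 without CBP-ifKO PTZ0 replicate 1.

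Kindling without a last PTZ injection left no called change in any member. The PTZ0 against Sal log2 fold change of Nptx2 was 0.21 (SE 0.18, 95% interval -0.15 to 0.57) in controls, whose Sal and PTZ0 libraries ran on the same lane, and -0.05 (SE 0.30, 95% interval -0.63 to 0.54) in CBP-ifKOs. Nptx1 had 0.05 (SE 0.07) and 0.07 (SE 0.09), and Nptxr 0.09 (SE 0.05) and 0.15 (SE 0.08), which became 0.05 and 0.08 when replicate 1 of the PTZ0 group concerned was left out. Every adjusted p was 1. Without Control Sal replicate 1 the Nptx2 value in controls was 0.10. The background was 3 called genes of 35602 in controls (0.00843%) and 4 of 35705 in CBP-ifKOs (0.0112%).

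Set in order, the mean Nptx2 level was 200.7 in Control PTZ45, 124.2 ± 10.02 in Control PTZ0, 108.1 in Control Sal, 67.2 in CBP-ifKO PTZ45, 52.3 ± 10.3 in CBP-ifKO Sal and 50.5 ± 5.90 in CBP-ifKO PTZ0 (SD, n = 3 where given). The neighbours Control PTZ0 and Control Sal overlapped, as did the 3 CBP-ifKO groups, whereas Control PTZ45 and Control PTZ0, and Control Sal and CBP-ifKO PTZ45, did not. For Nptx1 the order ran from CBP-ifKO PTZ0, at 4720 ± 521.4, to Control PTZ45, at 3841 ± 367.4, and for Nptxr from Control PTZ0, at 6158 ± 274.3, to CBP-ifKO Sal, at 4954 ± 117.4. In both of these orders every group overlapped with its neighbours.

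The proportion of Nptx2 to each of the other members within a library separated the genotypes, and Control PTZ45 from the other control groups, without overlap; the ratios were not tested. Per kilobase, the controls had 5.57 ± 0.22 Nptx2 per 100 Nptx1 in Sal, 6.19 ± 0.23 in PTZ0 (SD, n = 3 each) and 10.7 ± 1.26 in PTZ45 (SD, n = 2). The CBP-ifKOs had 2.38 ± 0.39, 2.23 ± 0.42 and 3.48 ± 0.67 (SD, n = 3 each). No CBP-ifKO library exceeded 3.97, and no control library fell under 5.40. Per 100 Nptxr there were 4.79 ± 1.57 Nptx2 in controls (SD, n = 8) and 2.24 ± 0.52 in CBP-ifKOs (SD, n = 9), from 3.38 to 7.58 and from 1.57 to 3.26, again without overlap. The ratio of Nptx1 to Nptxr, the abundant members, was 67.6 ± 3.56 per 100 in controls, from 61.7 to 71.7, and 84.0 ± 7.44 in CBP-ifKOs, from 69.0 to 91.1. It was 68.2 ± 5.63 in Control Sal, 66.4 ± 0.88 in Control PTZ0 and 68.4 ± 4.20 in Control PTZ45, which overlapped. In Sal and PTZ0 this ratio separated the genotypes, whereas in PTZ45 they overlapped. These ratios do not depend on the scaling of libraries.

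**Figure D3:**
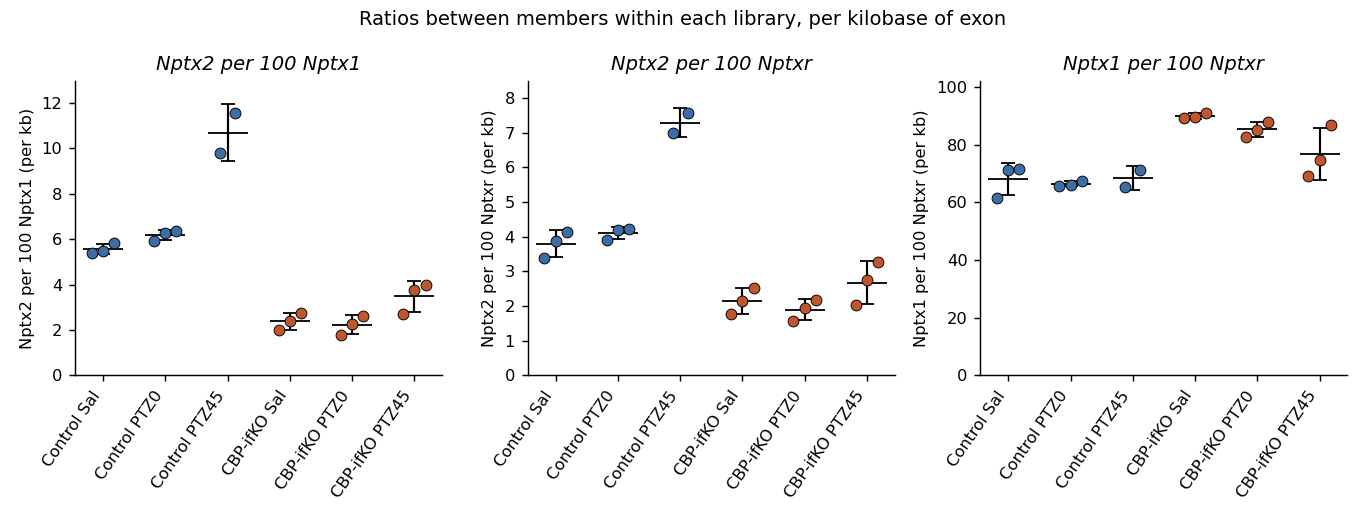
Ratios of normalized counts per kilobase of exon between members (vertical axes, from 0) in each library by group; points are libraries (blue control, orange CBP-ifKO), the long bar is the group mean and the whiskers are 1 SD. Nptx2 per 100 Nptx1 lies between 5.40 and 11.6 in controls and between 1.79 and 3.97 in CBP-ifKOs.

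Other genes with a pentraxin domain were at low levels. Crp and Apcs, the short pentraxins of the liver, had mean levels of at most 0.35 normalized counts in any group. Ptx3, a long pentraxin of inflammation, had group means from 6.76 to 9.85 in controls and from 3.16 to 4.31 in CBP-ifKOs, and Ptx4 from 5.10 to 9.98 and from 1.44 to 2.93. Their fitted log2 fold changes over all treatments were -1.08 (SE 0.39, p 0.00516) and -1.73 (SE 0.50, p 0.000612), and none of the 4 genes received an adjusted p in that comparison.

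Most genes known to act with neuronal pentraxins at the synapse did not pass the test between genotypes. Of 19 such genes (AMPA receptor subunits and their auxiliary subunits, C1q chains, perineuronal net genes and others), all tested, 1 was called higher and 5 lower in CBP-ifKOs over all treatments, and the median log2 fold change was -0.14, against 0.01 over all genes tested and 19.3% of those called. The called genes with the largest differences were Acan, which encodes the perineuronal net proteoglycan aggrecan, at -0.55 (SE 0.15, adjusted p 0.00229), Cnih2, an auxiliary AMPA receptor subunit, at -0.28 (SE 0.08, adjusted p 0.00383), Gria3, an AMPA receptor subunit, at -0.28 (SE 0.04, adjusted p 7.79e-12), and Cacng3, another auxiliary subunit, at -0.28 (SE 0.09, adjusted p 0.0121). The receptor phosphatase gene Ptprs was also called, at -0.19, and the gene called higher was Adam17, which encodes a protease that sheds membrane proteins, at 0.22 (SE 0.06, adjusted p 0.00135). Ptprs and Adam17, and the uncalled genes named here, were chosen after their values were seen. The major AMPA receptor subunits Gria1 and Gria2 had log2 fold changes of -0.05 and 0.02 and were not called. Within PTZ0, where 6.68% of all genes were called, 3 of 18 tested were, Gria3 at -0.24, Cacng3 at -0.43 and Cnih2 at -0.28. Within PTZ45 (3.07% of all genes) it was Gria3 alone of the 19, at -0.36, and within Sal (2.04%) none of the 19. For the response to PTZ none of the 19 was called, in comparisons where 1.17% (against Sal) and 1.25% (against PTZ0) of all genes were called in controls and 0.294% and 0.0872% in CBP-ifKOs, so that a count of 0 is no result about these genes.

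Of 12 other secreted factors that were listed as induced by activity, 8 were called lower in CBP-ifKOs over all treatments and none higher. Over all 18682 genes tested, 2157 were called lower and 1449 higher, 19.3% in either direction. The median log2 fold change was -0.37, and the 4 genes that were not called ranged from -0.43 for Crh to 0.09 for Npy. The largest were in Penk, the enkephalin precursor, at -1.36 (SE 0.10, adjusted p 2.39e-41), Pdyn, the dynorphin precursor, at -1.14 (SE 0.12, adjusted p 4.66e-20), Bdnf, a neurotrophin, at -0.82 (SE 0.05, adjusted p 1.4e-54), and Vgf, a secreted neuropeptide precursor, at -0.56 (SE 0.07, adjusted p 2.54e-12). The study named Bdnf, Penk, Pdyn and Nptx2 partly from these libraries, so the list is not independent evidence of this direction. Within treatments 4 of 11 genes tested were called lower in Sal (2.04% of all genes called), 5 of 10 in PTZ0 (6.68%) and 5 of 11 in PTZ45 (3.07%), and Bdnf, Penk and Pdyn were among them each time. After PTZ in controls 1 of 11 tested against Sal (1.17% of all genes called) and 1 of 12 against PTZ0 (1.25%) was called, both times Scg2, a granin of dense core vesicles, at 0.52 (SE 0.09, adjusted p 5.78e-07) and 0.45 (SE 0.07, adjusted p 7.54e-08). Bdnf, at 0.37 (SE 0.11, adjusted p 0.0841), was not.

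**Figure D4:**
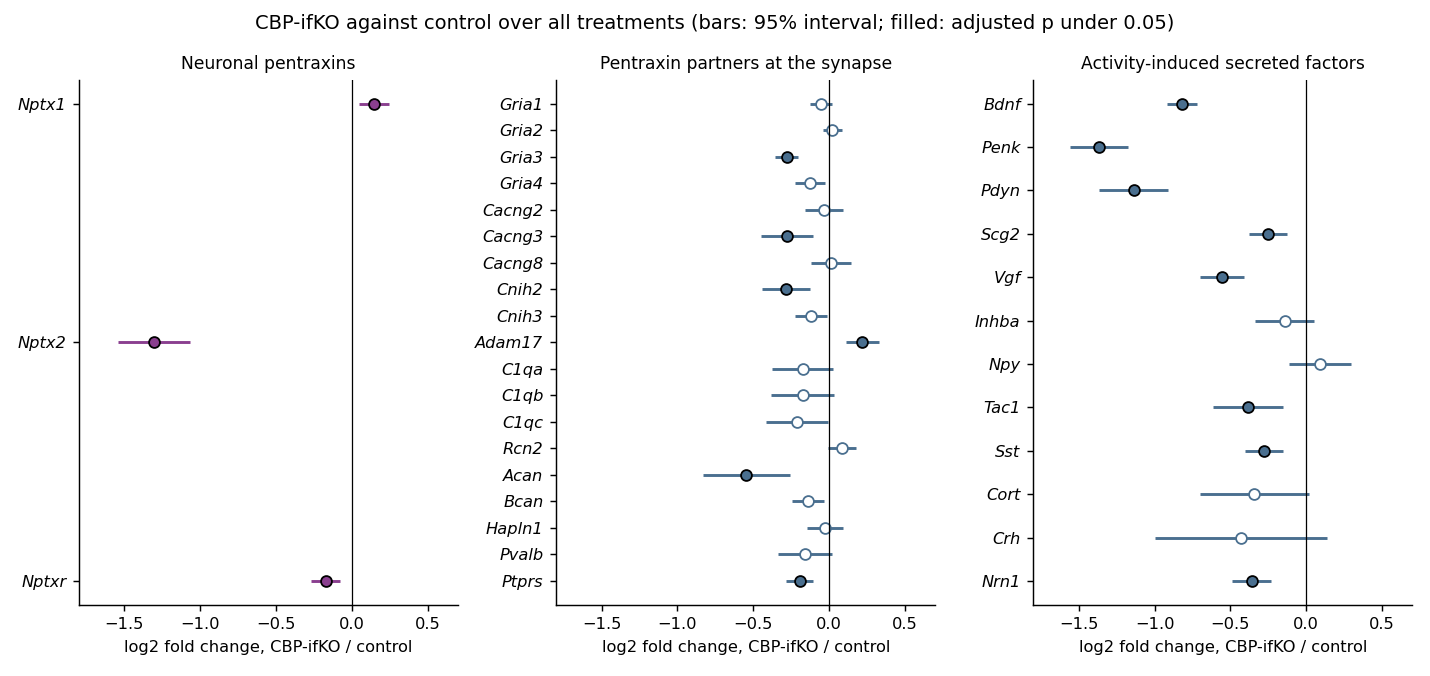
Log2 fold change of CBP-ifKO against control over all treatments (horizontal axes) with its 95% interval for the neuronal pentraxins, 19 synaptic partners and 12 activity-induced secreted factors; filled points have an adjusted p under 0.05 by DESeq2. Nptx2, at -1.31, lies beside Penk, at -1.36, whereas the partner with the largest difference is Acan, at -0.55.

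The genes whose levels followed Nptx2 most closely over the 17 libraries were Bdnf (Pearson r of log2 values 0.96), Cpne8 (0.95), Mapk10 (0.94), Vav3 (0.94) and Efr3a (0.94), the highest among 13040 genes. All 5 were called lower in CBP-ifKOs, with log2 fold changes from -0.82 for Bdnf to -0.20 for Mapk10, and the correlations include this difference between genotypes. For Nptxr they were Arf3 (0.93), Ap2a2 (0.93), Slc25a22 (0.91) and Ttc39c (0.90), and for Nptx1 they were Atg2a (0.91), Galnt17 (0.89), Gtf3c1 (0.88), Dnaja3 (0.88) and Arhgef17 (0.87). The genes named for the members differ. Between the members r was -0.52 for Nptx1 and Nptx2, 0.54 for Nptx2 and Nptxr and 0.09 for Nptx1 and Nptxr. The libraries share lanes and scaling, and these correlations are descriptions.

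Markers of CA1 and of dentate granule cells, which are excitatory neurons, differed between genotypes as well, in a comparison where 19.3% of all genes were called. The summed level of 5 CA1 markers ranged from 4118 to 4852 normalized counts in control libraries and from 2827 to 3818 in CBP-ifKOs, and 4 of the 5 were called lower over all treatments. Of 5 dentate granule cell markers 3 were called lower and 1 higher, with overlapping sums from 2985 to 3978 in controls and from 2805 to 3505 in CBP-ifKOs. The 3 called lower were C1ql2 at -1.66 on the log2 scale (SE 0.10), Tdo2 at -0.96 (SE 0.13) and Trpc6 at -0.77 (SE 0.05). Prox1, the transcription factor that defines granule cells, was the 1 called higher, at 0.26 (SE 0.06, adjusted p 0.000439). Among 5 general markers of excitatory neurons 1 was called in each direction, with sums from 28810 to 37410 in controls and from 32140 to 41670 in CBP-ifKOs. Of 5 CA3 markers 1 was called lower, and the median was -0.05. Interneuron markers, in cells that keep CBP, summed to between 6578 and 6930 in controls and between 5898 and 6608 in CBP-ifKOs, with 2 of 7 called lower, and of 5 astrocyte markers 2 were called lower. No marker of these lists was at 0 in any group. The part of these marker differences in the Nptx2 result was not tested. In bulk tissue, fewer cells of a type and less RNA per cell cannot be told apart.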

How the data were processed

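Gene counts came from single-end 50-base reads. The authors trimmed reads (Trim Galore 0.6.4), aligned them to GRCm38 with STAR 2.6.1 and counted them on Ensembl exons with Rsubread; the deposited values are raw counts per gene, with strand use not given in the sources used here, and gene lengths are a deposited column. Of the count columns, 1 matched no sample and was not used. Here, DESeq2 1.42.0 (R 4.3.3) fitted genes with at least 1 count by the Wald test, the test of the study's methods, in pairs of groups, in the interaction of 4 groups, and over all 17 libraries with treatment as a term. Calls had a Benjamini-Hochberg adjusted p under 0.05 over all genes. Single members were also tested by exact permutation on log2(normalized count + 1).

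Alternatives were edgeR 4.0.16 with its expression filter, TMM scaling, a low count filter (10 counts in 2 libraries), 1 fit of all libraries, replicate block, GC correction (loess, span 0.5), lane, pseudocount 0.5 and leaving out each library. Positions, GC content and sequences came from GENCODE M21 (GRCm38), in which 99.6% of the identifiers were found. Members and lists were chosen with earlier results of these data known. The text names the members, Crebbp, Esr1, Arsi and Fos, the 5 best correlates of each member among genes averaging 50 or more normalized counts, and at most 4 called genes a list, unless it says otherwise; 1 correlate is not reported here. The script was tested on simulated data. Replicate pairs differed by more than sampling noise (chi-square per degree of freedom 2.16 to 16.0), so each library counted as 1 sample.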

Additional observations from a re-analysis of the deposited data

How the results depend on the processing

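Over all treatments, Nptx2 kept its direction and call under all 23 alternatives. Nptx1 and Nptxr lost the call with lane as a term (0.037 and -0.17), a fit that does not separate lane from genotype. Nptxr lost its exact permutation call with CPM scaling (-0.12, p 0.075). In Control PTZ45 against Sal, the GC correction turned the signs of Nptx1 (0.034) and Nptxr (0.14); against PTZ0 it turned that of Nptxr in controls (0.018) and CBP-ifKOs (0.055), and in CBP-ifKO PTZ0 against Sal that of Nptx2 (0.0068). Nptx2 in PTZ45 against PTZ0 in controls lost its call with TMM size factors (0.69, adjusted p 0.055) and in 1 fit of all libraries (0.70, adjusted p 0.0708). The cause was not tested.

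Replicate numbers did not pair the samples: deviations of same-numbered libraries had a median correlation of -0.06 over 40 pairs, against 0.03 over 80 others. With the replicate block, Nptx2 lost its call in PTZ45 against Sal (0.98) and PTZ0 (0.62) in controls and in Sal between genotypes (-1.06); in PTZ0 it was -1.30 with no adjusted p. Nptx1 in PTZ45 against Sal in controls was 0.00050. Calls over all genes went from 204 to 73, 225 to 94, 306 to 122, 852 to 410 and 468 to 102 in these comparisons and in PTZ45, from 23 to 8 in PTZ45 against PTZ0 and from 4 to 2 in PTZ0 against Sal in CBP-ifKOs.

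Leaving out 1 library gave ranges of 0.11 to 0.18 for Nptx1 and -0.21 to -0.15 for Nptxr over all treatments, and 0.11 to 0.17 and -0.22 to -0.11 in the permutation test. In PTZ45 against Sal in controls it gave -0.16 to 0.037 for Nptx1, 0.66 to 1.09 for Nptx2 and -0.22 to 0.098 for Nptxr, against PTZ0 0.64 to 0.89 for Nptx2, with 0.45 and no adjusted p without Control PTZ45 replicate 1, and -0.31 to 0.013 for Nptxr. In Sal between genotypes Nptx2 ran from -1.15 to -0.89, with -1.24 and no adjusted p without CBP-ifKO Sal replicate 3. Signs turned for Nptx1 in PTZ0 against Sal (controls, -0.035 to 0.11; CBP-ifKOs, -0.023 to 0.12) and in PTZ45 between genotypes (-0.039 to 0.16), for Nptx2 in PTZ0 against Sal in CBP-ifKOs (-0.20 to 0.13), and for Nptxr in PTZ45 between genotypes (-0.26 to 0.061) and the interactions over Sal (-0.036 to 0.28) and PTZ0 (-0.092 to 0.23). None of these was called. Where 1 Control PTZ45 library is left out, the other is assumed to vary like the libraries it is compared with.

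Calls over all genes also moved in edgeR, to 4 and 9 in PTZ45 against Sal and PTZ0 in CBP-ifKOs, 1 in PTZ0 against Sal in each genotype, 157 in Sal between genotypes and 43 in the interaction over Sal. The GC correction gave 21 in PTZ45 against Sal in CBP-ifKOs. In 1 fit of all libraries there were 91, 614 in Sal and 785 in PTZ45 between genotypes, and 0 in PTZ0 against Sal. The lane term left 131. Leaving out 1 library gave between genotypes 127 to 620 calls in Sal, 327 to 913 with PTZ0 and 153 to 365 with PTZ45, 109 to 164 in PTZ45 against Sal and 133 to 499 against PTZ0 in controls, 16 to 92 and 16 to 23 in CBP-ifKOs, 0 to 20 (controls) and 2 to 5 (CBP-ifKOs) in PTZ0 against Sal, and 38 to 66 and 50 to 79 in the interactions over Sal and PTZ0. Depth limits Nptx2, at 25 to 261 reads.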
